A study of Homo sapiens with 6 samples.

Results

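The genes examined are 55 components of the pathways that detect and mend damaged DNA, grouped by pathway: 12 of nucleotide excision repair, 5 of mismatch repair, 14 of homologous recombination, 10 of the Fanconi pathway, 8 of end joining and strand-break repair, and 6 damage kinases and their mediators. They were found by symbol in GENCODE release 29, each with 1 gene ID, among 58780 human genes in the tables, and all 55 were among the 19725 genes that passed the filter on low counts. The libraries are RNA-seq of HCT116, a human colorectal carcinoma line that lacks functional mismatch repair, from cells given auxin for 16 h (3 biological replicates) and from DMSO controls (3 biological replicates). Auxin, a plant hormone, is given to engineered cells to make them degrade a degron-tagged protein. The labels give neither the tagged protein nor the genotype beyond the treatment, so what auxin removed, and what both groups share in their engineering, cannot be read from them. They also do not say for how long the DMSO cells were treated. The series title speaks of networks around nuclear speckles and the active chromosome regions near them, and the question behind this comparison is not stated.

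Cells keep separate machineries for separate lesions. Nucleotide excision repair cuts out bulky adducts and ultraviolet photoproducts, mismatch repair corrects replication errors, and the Fanconi pathway unhooks crosslinks between the strands. Homologous recombination copies a sister chromatid to mend a double-strand break, so it works mainly in S and G2 phase and many of its genes are transcribed most when cells replicate, whereas end joining ligates the ends directly. The kinases ATM and ATR report the damage to the cell cycle.

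Total expected counts, which are estimated reads per gene, ranged from 234035407 to 625892507 per library, and a listed gene had between 228 and 877302 counts in a library. Replicate 1 was the deepest library of its group in both groups and stood apart from replicates 2 and 3 on the second principal component, at 21.2 and 23.8 against -14.9 to -8.28. Mitochondrial genes took 2.75% to 6.38% of counts, with overlapping ranges in the groups. The epithelial markers EPCAM, CDH1, KRT8, KRT18 and KRT19 were all present, at mean levels from 39.6 to 757 TPM (the authors' per-length measure of level) in DMSO, while VIL1 was at 0.00667 TPM. PTPRC, PECAM1 and ALB, markers of leukocytes, endothelium and hepatocytes, were at or under 0.0567 TPM in either group, and the fibroblast marker COL1A1 was at 1.81 TPM in DMSO and 0.813 TPM after auxin. In bulk RNA, fewer cells in a state and less RNA per cell cannot be told apart.

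After auxin, 29 of the 55 repair genes fell and 10 rose, and 16 did not pass the threshold, set at 0.05 for the adjusted p of edgeR's quasi-likelihood test over all genes. Log2 changes below are auxin over DMSO, with the standard error (SE) of the estimate. Among all genes tested, 26.9% were lower and 25.4% higher, and among protein-coding genes tested 33.4% were lower and 27.8% higher, and in either direction 52.3% and 61.2%. With the replicate number as a block, 14 of the 55 were higher and 33 lower, where 35.5% of all genes tested were higher and 34.4% lower (69.9% in either direction). The median log2 fold change of the 55 was -0.33, against 0.02 over all genes tested. The falls were also the larger changes: 12 genes fell by at least 2-fold, the largest rise was 1.84-fold, and 13.3% of all genes tested fell and 6.55% rose by at least 2-fold. Among these lists the Fanconi genes had the lowest median, at -1.17, followed by homologous recombination at -0.48, kinases and mediators at -0.24, mismatch repair at -0.15, excision repair at -0.01 and end joining at 0.01. The order depends on the genes listed, as 12 further end-joining genes described below had a median of -0.82. In 41 of the 55 genes, the 39 called ones with MRE11 and MSH3, the counts per library did not overlap between the groups, against 60.3% of all genes tested. They are given as CPM, the count scaled to library size with edgeR's TMM factors. The plot of fold changes by pathway shows these groups.

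**Figure D1:**
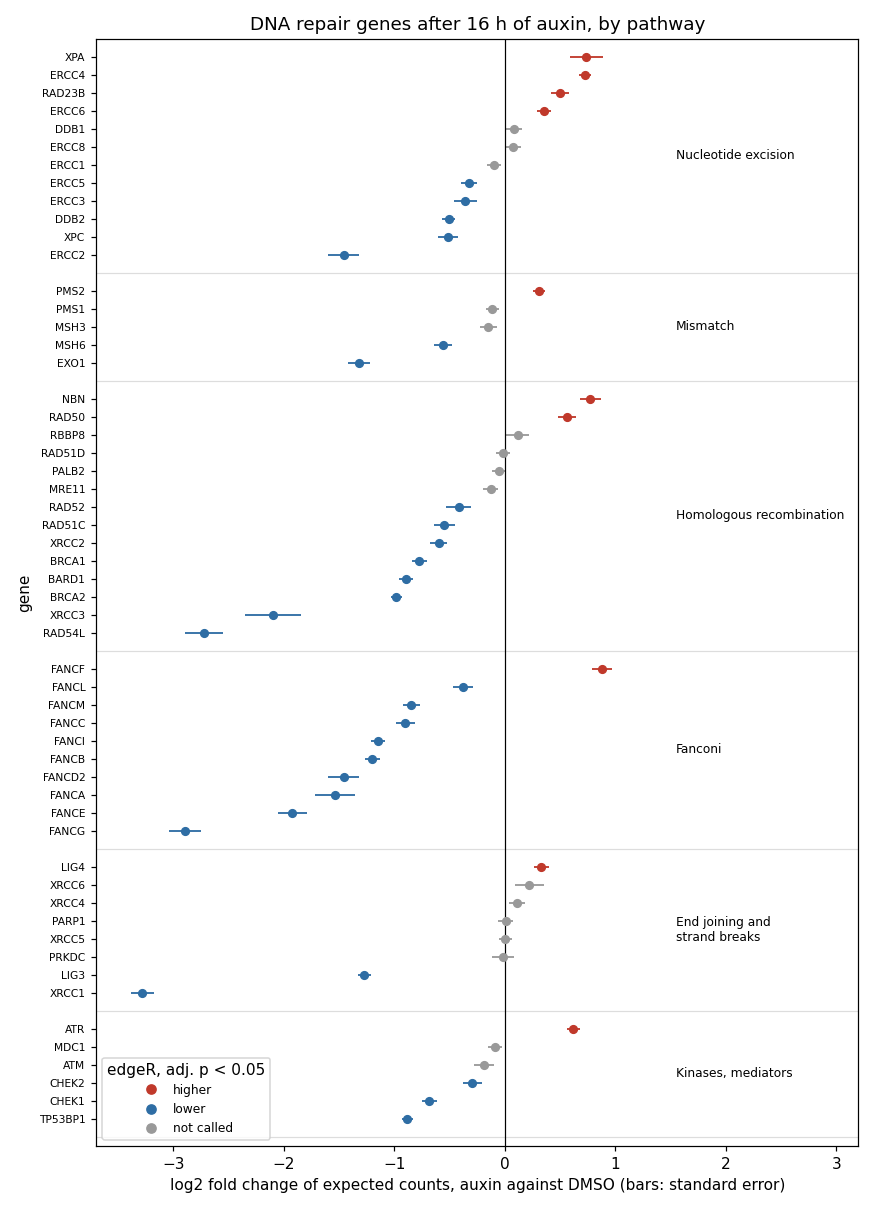
Log2 fold change of expected counts after auxin against DMSO for each of the 55 repair genes, by pathway; points are edgeR estimates from 3 libraries a group, bars are standard errors, and colour gives the call. Of the 10 Fanconi genes 9 lie to the left of 0, and XRCC1 lies farthest left of all, at -3.28. No called gene, here or among all genes tested, was called in the opposite direction under another scaling.

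The balance of rises and falls moved with the scaling, while the direction of the called genes did not. With upper-quartile factors, which moved the median gene by 0.12 on the log2 scale, 15 repair genes were higher and 25 lower, where 33.1% of all genes tested were higher and 22.4% lower. On log2(TPM + 1) and log2(TPM + 0.1), tested with limma-trend and with median shifts of -0.14 and -0.15, 2 were higher in each case and 20 and 21 lower. Of all genes tested, 4.92% and 5.16% were then higher and 15% and 16.3% lower. The 2 rises called on TPM were those of NBN and RAD50. The added TPM draws the log2 TPM change of low genes towards 0, as in XPA, at 0.404 with 1 TPM and 0.547 with 0.1 TPM. Estimates on log2(TPM + 1) were smaller than in the main test in some genes and larger in others. XPA was at 0.404 against 0.74, and ERCC5 at -0.466 against -0.325. Why calls ended on TPM was not tested. No repair gene called in the main test was called in the opposite direction under any of the 15 other settings. The same held for all genes called in the main test, so it is not particular to the repair genes.

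For orientation, the 250 bases before the RefSeq start (GRCh38.p14) are given for the 3 genes with the largest falls and for 3 of the 4 with the largest rises, the ends of the range described in the next paragraphs. Each runs from 5′ to 3′ on the gene's strand, and capitals mark CCAAT boxes (CCAAT), GC boxes (GGGCGG) and a set of E2F sites (TTTCGCGC, TTTCCCGC, TTTGGCGC or TTTGCCGC) on either strand.
XRCC1, chr19:43575528-43575777, minus strand: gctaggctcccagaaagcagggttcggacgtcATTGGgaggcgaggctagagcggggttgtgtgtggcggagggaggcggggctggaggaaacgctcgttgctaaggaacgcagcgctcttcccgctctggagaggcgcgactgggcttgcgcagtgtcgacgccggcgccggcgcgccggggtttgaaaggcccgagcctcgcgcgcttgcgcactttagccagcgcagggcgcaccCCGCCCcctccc
FANCG, chr9:35079943-35080192, minus strand: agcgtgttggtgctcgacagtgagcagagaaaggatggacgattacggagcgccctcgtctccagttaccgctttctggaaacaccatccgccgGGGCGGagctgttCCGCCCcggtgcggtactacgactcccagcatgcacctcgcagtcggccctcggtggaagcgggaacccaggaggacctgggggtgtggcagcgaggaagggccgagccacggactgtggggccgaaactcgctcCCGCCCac
RAD54L, chr1:46247438-46247687, plus strand: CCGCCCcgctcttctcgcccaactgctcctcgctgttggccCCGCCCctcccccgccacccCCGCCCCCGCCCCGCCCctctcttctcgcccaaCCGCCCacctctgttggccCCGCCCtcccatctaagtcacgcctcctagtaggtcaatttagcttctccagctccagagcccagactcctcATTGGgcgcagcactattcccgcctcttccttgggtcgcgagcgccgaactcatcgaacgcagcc
FANCF, chr11:22625824-22626073, minus strand: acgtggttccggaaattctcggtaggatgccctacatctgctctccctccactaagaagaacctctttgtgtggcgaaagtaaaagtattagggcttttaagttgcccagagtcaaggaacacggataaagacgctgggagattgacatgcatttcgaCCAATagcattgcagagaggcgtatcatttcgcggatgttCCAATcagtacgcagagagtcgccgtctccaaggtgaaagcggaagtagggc
XPA, chr9:97697341-97697590, minus strand: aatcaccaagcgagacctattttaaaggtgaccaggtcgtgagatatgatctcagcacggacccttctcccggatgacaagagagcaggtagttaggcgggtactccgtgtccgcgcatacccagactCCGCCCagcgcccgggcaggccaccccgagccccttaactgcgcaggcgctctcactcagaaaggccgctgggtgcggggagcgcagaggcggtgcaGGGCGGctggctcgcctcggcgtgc
ERCC4, chr16:13919904-13920153, plus strand: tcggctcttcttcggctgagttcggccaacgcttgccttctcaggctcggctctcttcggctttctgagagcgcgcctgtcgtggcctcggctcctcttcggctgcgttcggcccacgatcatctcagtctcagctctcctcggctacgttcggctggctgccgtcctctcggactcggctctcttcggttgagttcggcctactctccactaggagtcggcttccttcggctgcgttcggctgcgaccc
Of the 55 genes, 51 had a RefSeq entry. For these the start nearest the GENCODE 5′ end was used, but for the background genes the first start listed, so the windows were chosen by unlike rules. The XRCC1 start lies 4946 bases from the GENCODE 5′ end, that of FANCG 74 bases, and the other starts shown are nearer. A GC box stood in the window of 34 of the 51 and in 66.3% of the windows of the 10921 protein-coding genes tested that had an entry, or 42.3% of all 27305 windows. A CCAAT box stood in 21 of the 51, against 35.1% and 33%, and an E2F site in 5, against 4.42% and 2.79%. By direction, GC boxes stood in 21 of 28 windows of genes that fell and in 5 of 9 of genes that rose, and CCAAT boxes in 11 and 3. The E2F letters stood in the windows of XPC, MSH3, PMS2, FANCA and FANCC, of which 3 fell, PMS2 rose and MSH3 was not called. A match describes letters only, and its absence says nothing of a factor.

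All but 1 of the Fanconi genes fell. The pathway is built from a core complex that ubiquitinates the FANCD2-FANCI pair at a stalled fork, and 9 of the 10 genes fell while FANCF rose (background 26.9% lower and 25.4% higher). Their summed level was 214.9, 134.7 and 146.4 TPM in the DMSO libraries and 85.9, 59.3 and 64.7 TPM after auxin, so each auxin library lay below each DMSO library although replicate 1 was the highest of both groups.

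FANCG (ENSG00000221829.9, chromosome 9, 35073835 to 35080016), a core complex subunit, was at 18.4, 17 and 19.1 CPM in DMSO replicates 1, 2 and 3 and at 2.91, 2.06 and 2.33 CPM in auxin replicates 1, 2 and 3. It fell 7.43-fold, with a log2 change of -2.89 (SE 0.14, adjusted p 8.56e-06). FANCE (ENSG00000112039.4, chromosome 6, 35452356 to 35467103), which links the core complex to FANCD2, was at 12.7, 10.5 and 11.2 CPM in the DMSO libraries and 3.45, 2.84 and 2.75 CPM after auxin, a log2 change of -1.92 (SE 0.13, adjusted p 2.74e-05). In both genes the highest auxin library lay well below the lowest DMSO library. FANCA (ENSG00000187741.14, chromosome 16, 89737549 to 89816657), the partner of FANCG in the core complex, was at 55.5, 42.4 and 44.7 CPM in the DMSO libraries and 20.7, 13.6 and 14.7 CPM after auxin. Its change was -1.54 (SE 0.18, adjusted p 0.000365), and replicate 1 was the highest library in each group. FANCA overlaps ZNF276 on the opposite strand by 2302 of 9736 exonic bases. FANCB, another core subunit, was at 20.8, 20.2 and 21.4 CPM in the DMSO libraries and 8.94, 9.13 and 9.11 CPM after auxin, with a change of -1.20 (SE 0.07, adjusted p 1.21e-05).

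Both proteins of the ubiquitinated pair had lower RNA. FANCD2 (ENSG00000144554.10, chromosome 3, 10026414 to 10101930) was at 41.2, 34.3 and 36.7 CPM in the DMSO libraries and 16.3, 11.5 and 13 CPM after auxin, a log2 change of -1.46 (SE 0.14, adjusted p 0.000139). FANCI (ENSG00000140525.17, chromosome 15, 89243949 to 89317261) was at 189.9, 193 and 208 CPM in the DMSO libraries and 85.7, 86.5 and 93.8 CPM after auxin, with a change of -1.15 (SE 0.07, adjusted p 1.54e-05). FANCI remained the most abundant of the 10 on either side, at 67.5 TPM in DMSO and 26.5 TPM after auxin.

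Smaller falls were seen in the rest of the list. FANCC, a core subunit, was at 26.6, 23.8 and 25.1 CPM in the DMSO libraries and 14.9, 12.8 and 12.7 CPM after auxin, with a change of -0.90 (SE 0.09, adjusted p 0.000158). FANCM, the translocase that anchors the complex to DNA, was at 38.7, 41.8 and 45.4 CPM in the DMSO libraries and 22, 23.8 and 24.2 CPM after auxin, with a change of -0.85 (SE 0.08, adjusted p 0.000113). FANCL, the ubiquitin ligase itself, changed least among the falls, from 14.4 ± 0.942 to 11 ± 0.862 CPM (± SD, n = 3 each), at -0.38 (SE 0.09, adjusted p 0.0103). That call ended with upper-quartile factors (adjusted p 0.0797) and on TPM (adjusted p 0.337 and 0.308). FANCL overlaps VRK2 on the opposite strand by 452 of 2412 exonic bases.

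FANCF (ENSG00000183161.5, chromosome 11, 22622890 to 22625841), the adaptor of the core complex, moved the other way. It was at 5.23, 5.88 and 5.38 CPM in DMSO replicates 1, 2 and 3 and at 9.88, 10.7 and 9.72 CPM in auxin replicates 1, 2 and 3, with every auxin library above every DMSO library. The rise was 1.84-fold, a log2 change of 0.88 (SE 0.09, adjusted p 0.00019). On TPM the call ended, at adjusted p 0.0823 and 0.0707. FANCF was also the least abundant Fanconi gene in DMSO, at 1.98 ± 0.356 TPM (SD, n = 3), and it is the only one of the 55 genes annotated with 1 exon. The other 9 Fanconi genes have between 11 and 44 exons in their longest exon chain. Across the 55 genes, exon number and fold change correlated at -0.16 (Spearman), against -0.13 across protein-coding genes tested. The median exon number was 13 in the 10 repair genes that rose and 16 in the 29 that fell. Among protein-coding genes tested it was 9 in those higher and 11 in those lower. The part of exon number was not tested.

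The 14 homologous recombination genes cover end resection, the BRCA mediators, the XRCC2, XRCC3, RAD51C and RAD51D subunits of early recombination complexes, and the motor RAD54L. Of these 8 fell, 2 rose and 4 were not called (all genes tested, 26.9% lower and 25.4% higher). RAD54L (ENSG00000085999.11, chromosome 1, 46247688 to 46278473), the ATPase that drives strand exchange, was at 44.8, 40.1 and 40.4 CPM in DMSO replicates 1, 2 and 3 and at 7.95, 4.99 and 5.99 CPM in auxin replicates 1, 2 and 3. It fell 6.6-fold, a log2 change of -2.72 (SE 0.17, adjusted p 2.24e-05), and the auxin libraries lay far below the DMSO libraries. RAD54L overlaps LRRC41 on the opposite strand by 806 of 3212 exonic bases, and LRRC41 was at 10.8 to 18 TPM in DMSO and 5.56 to 9.13 TPM after auxin.

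Of the 4 genes around BRCA1 and BRCA2, 3 fell. BRCA2 (ENSG00000139618.14, chromosome 13, 32315474 to 32400266), a mediator of strand exchange, was at 112, 105 and 109 CPM in the DMSO libraries and 56.1, 53 and 56.2 CPM after auxin, with a change of -0.98 (SE 0.05, adjusted p 1.22e-05). BARD1 (ENSG00000138376.10, chromosome 2, 214725646 to 214809711), the obligate partner of BRCA1, was at 77.5, 78.7 and 82.8 CPM in the DMSO libraries and 39.9, 43.6 and 45.1 CPM after auxin, with a change of -0.90 (SE 0.06, adjusted p 3.72e-05). BRCA1 (ENSG00000012048.21, chromosome 17, 43044295 to 43170245) was at 122, 122 and 131 CPM in the DMSO libraries and 69.4, 71 and 79.7 CPM after auxin, with a change of -0.77 (SE 0.07, adjusted p 0.000115). The spread within each group was small beside these differences. PALB2, the bridge between BRCA1 and BRCA2, was at 44.8 ± 1.57 and 43.1 ± 1.99 CPM (± SD, n = 3 each) with overlapping groups, and its log2 fold change of -0.05 (SE 0.06, adjusted p 0.491) did not pass.

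Among XRCC2, XRCC3, RAD51C and RAD51D 3 fell and 1 was not called. XRCC3 (ENSG00000126215.13, chromosome 14, 103697609 to 103715504) was at 18.1, 11.8 and 12.8 CPM in the DMSO libraries and 4.49, 2.7 and 2.75 CPM after auxin, with a change of -2.10 (SE 0.26, adjusted p 0.000431), with replicate 1 highest in both groups. Of its 7507 exonic bases, 5756 overlap KLC1 on the opposite strand, which was at 43.8 to 64.3 TPM, and without strand in the counting their reads cannot be told apart. XRCC2 was at 32.4, 29.2 and 28.5 CPM in the DMSO libraries and 20.7, 18.8 and 20.0 CPM after auxin, with a change of -0.60 (SE 0.08, adjusted p 0.000523), a call that ended on TPM (adjusted p 0.108 and 0.0815). RAD51C, with XRCC3 in one complex, fell from 61.9 ± 6.24 to 42.3 ± 3.74 CPM (± SD, n = 3 each), at -0.55 (SE 0.10, adjusted p 0.00243). RAD51D, with XRCC2 in another, was at 33.7 ± 1.4 and 33.3 ± 1.78 CPM (± SD, n = 3 each), with overlapping groups and a change of -0.02 (SE 0.07, adjusted p 0.84). RAD52, a strand-annealing protein, fell from 9.23 ± 0.239 to 6.91 ± 0.978 CPM (± SD, n = 3 each), at -0.42 (SE 0.11, adjusted p 0.0188). That call ended without auxin replicate 2 (adjusted p 0.0687), without auxin replicate 3 (adjusted p 0.0726), with upper-quartile factors (adjusted p 0.1) and on TPM (adjusted p 0.437 and 0.395).

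NBN, RAD50, MRE11 and RBBP8, the end-resection genes of this list, were not called lower in this test. The exonuclease EXO1, counted here under mismatch repair, fell, with a log2 change of -1.32. NBN (ENSG00000104320.13, chromosome 8, 89933336 to 90003228), the subunit of the MRE11-RAD50-NBN complex that recruits ATM, was at 127, 141 and 152 CPM in DMSO replicates 1, 2 and 3 and at 215, 257 and 246 CPM in auxin replicates 1, 2 and 3. It rose 1.71-fold, a log2 change of 0.77 (SE 0.10, adjusted p 0.000468). RAD50 (ENSG00000113522.13, chromosome 5, 132556019 to 132646344), the tethering ATPase, was at 120.3, 134 and 137 CPM in the DMSO libraries and 175, 206 and 198 CPM after auxin, with a change of 0.56 (SE 0.08, adjusted p 0.00118). In both genes all 3 auxin libraries exceeded all DMSO libraries. RAD50 has 7784 of its 9771 exonic bases in common with AC116366.3, an overlapping gene on the same strand, so the division of reads between them is uncertain. As estimated, AC116366.3 was at 0.34 to 0.84 TPM, against RAD50 means of 24.85 TPM in DMSO and 40.06 TPM after auxin. MRE11, the nuclease of the complex, was at 14 ± 0.573 and 12.8 ± 0.361 CPM (± SD, n = 3 each), with a change of -0.13 (SE 0.07, adjusted p 0.167), and with the replicate number as a block its change was -0.13 (adjusted p 0.0284). RBBP8, the resection factor CtIP, was at 132 ± 14.3 and 143 ± 13 CPM (± SD, n = 3 each), with a change of 0.12 (SE 0.10, adjusted p 0.374), and with the block 0.12 (adjusted p 0.00972).

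Of the 8 genes of end joining and strand-break repair 2 fell, 1 rose and 5 were not called, no larger a share than among all genes tested (26.9% lower and 25.4% higher). XRCC1 (ENSG00000073050.11, chromosome 19, 43543040 to 43580473), the scaffold of single-strand break repair, was at 9.85, 10.4 and 11.2 CPM in DMSO replicates 1, 2 and 3 and at 1.14, 1.06 and 1.03 CPM in auxin replicates 1, 2 and 3. This 9.73-fold fall was the largest of all 55, a log2 change of -3.28 (SE 0.10, adjusted p 1.99e-06), and the groups were widely separated. LIG3 (ENSG00000005156.11, chromosome 17, 34980494 to 35009743), the ligase that XRCC1 carries, was at 46, 46.1 and 47.1 CPM in the DMSO libraries and 20.3, 18.3 and 19.1 CPM after auxin, with a change of -1.27 (SE 0.06, adjusted p 7.79e-06). LIG3 overlaps RFFL on the opposite strand by 3754 of its 12919 exonic bases. PARP1, which detects the nicks that XRCC1 and LIG3 seal, was at 208 ± 13.1 and 209 ± 10.6 CPM (± SD, n = 3 each) with overlapping groups, and its change was 0.01 (SE 0.07, adjusted p 0.949).

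Among the core genes of non-homologous end joining only LIG4 passed the test, and the most abundant ones did not. XRCC5 and XRCC6 encode Ku80 and Ku70, the ring that binds broken ends. XRCC5 was at 645 ± 16.9 and 646 ± 6.85 CPM (± SD, n = 3 each), with a change of 0.00 (SE 0.06, adjusted p 0.961). XRCC6 was at 496 ± 67.8 and 579 ± 76 CPM (± SD, n = 3 each), with a change of 0.22 (SE 0.13, adjusted p 0.203), and with the block its change was 0.22 (adjusted p 0.000473). The XRCC6 change was also called without auxin replicate 1 (adjusted p 0.0494). PRKDC, the kinase that Ku recruits, was at 1283 ± 151 and 1265 ± 75.2 CPM (± SD, n = 3 each), with a change of -0.02 (SE 0.10, adjusted p 0.883). The groups overlapped in all 3 genes. XRCC4, the scaffold of the final ligase, was at 37.8 ± 2.52 and 40.7 ± 2.28 CPM (± SD, n = 3 each), with a change of 0.11 (SE 0.07, adjusted p 0.258), and with the block 0.11 (adjusted p 0.0452). LIG4 (ENSG00000174405.13, chromosome 13, 108207439 to 108218368), that ligase, was the gene of this list that rose. It was at 26.9, 26.7 and 29 CPM in the DMSO libraries and 32.7, 35.7 and 35.4 CPM after auxin, with a change of 0.33 (SE 0.07, adjusted p 0.00458). The rise was not called on TPM (adjusted p 0.638 and 0.606). On the per-length scale XRCC6 and XRCC5 were among the 3 most abundant of the 55 in DMSO, at 319.8 and 242 TPM, against 4.6 TPM for XRCC1.

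**Figure D2:**
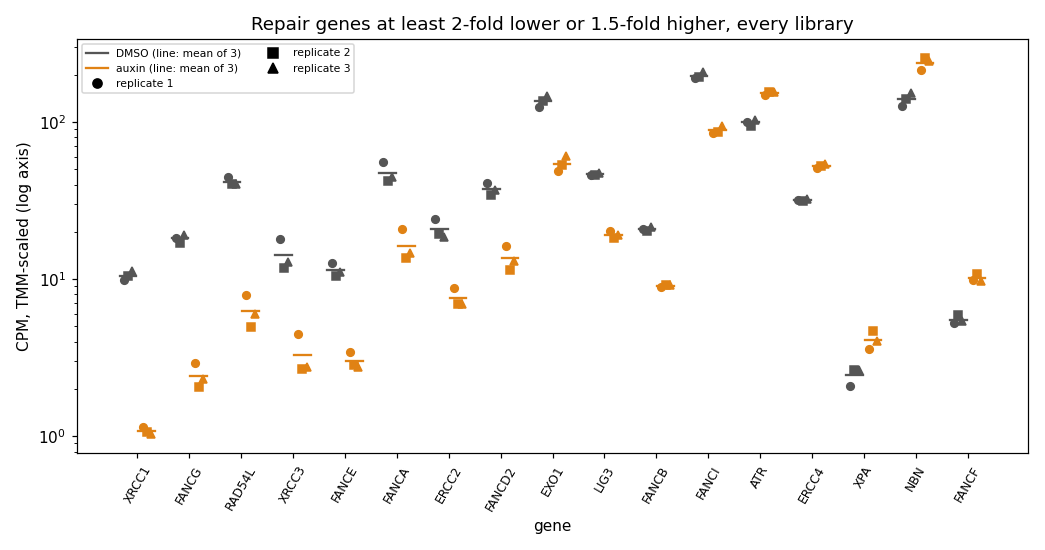
CPM scaled with TMM factors (log axis) in every library for the 12 repair genes that fell by at least 2-fold and the 5 that rose by at least 1.5-fold, ordered by fold change; points are libraries, lines are means of 3. The 17 were chosen by call and fold change, and their auxin and DMSO libraries do not overlap. The same holds for all 39 called repair genes and for 60.3% of all genes tested. XRCC1 goes from between 9.85 and 11.2 CPM to between 1.03 and 1.14 CPM. On TPM the rises of FANCF, XPA, ERCC4 and ATR were not called.

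Of the 12 nucleotide excision repair genes 5 fell, 4 rose and 3 were not called, where 26.9% of all genes tested were lower and 25.4% higher. TFIIH, the complex that unwinds DNA around the lesion, has 2 helicase subunits in the list. ERCC2 (ENSG00000104884.15, chromosome 19, 45349837 to 45370918), the XPD helicase, was at 24.1, 19.4 and 18.6 CPM in DMSO replicates 1, 2 and 3 and at 8.74, 6.92 and 6.93 CPM in auxin replicates 1, 2 and 3. It fell 2.75-fold, a log2 change of -1.46 (SE 0.14, adjusted p 0.00014), with replicate 1 highest in each group. ERCC3, the XPB translocase, fell from 70.0 ± 7.25 to 54.6 ± 5.81 CPM (± SD, n = 3 each), at -0.36 (SE 0.10, adjusted p 0.0222). The ERCC3 call ended without auxin replicate 2 (adjusted p 0.0771), without auxin replicate 3 (adjusted p 0.0749), with upper-quartile factors (adjusted p 0.132) and on TPM (adjusted p 0.246 and 0.226).

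Damage recognition genes diverged as well. XPC, the sensor of global genome repair, fell from 33.1 ± 3.3 to 23.3 ± 1.35 CPM (± SD, n = 3 each), at -0.51 (SE 0.09, adjusted p 0.00251), and RAD23B, which stabilises XPC, rose from 698 ± 37.9 to 988 ± 73.8 CPM (± SD, n = 3 each), at 0.50 (SE 0.08, adjusted p 0.00169). DDB2, the ultraviolet-damage binder, fell from 24 ± 0.642 to 16.9 ± 0.389 CPM (± SD, n = 3 each), at -0.51 (SE 0.06, adjusted p 0.000377), while its partner DDB1 was at 369 ± 16.1 and 391 ± 22.5 CPM (± SD, n = 3 each), with overlapping groups and a change of 0.08 (SE 0.07, adjusted p 0.352), and with the block 0.08 (adjusted p 0.0353). On TPM the calls of XPC, RAD23B and DDB2 ended, with adjusted p of 0.109, 0.539 and 0.791 on log2(TPM + 1).

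XPA and ERCC4 gave the largest rises of the list. XPA (ENSG00000136936.10, chromosome 9, 97674909 to 97697357), the scaffold that verifies the lesion, was at 2.09, 2.66 and 2.65 CPM in DMSO replicates 1, 2 and 3 and at 3.61, 4.67 and 4.03 CPM in auxin replicates 1, 2 and 3, with a change of 0.74 (SE 0.15, adjusted p 0.00516). ERCC4 (ENSG00000175595.14, chromosome 16, 13920157 to 13952345), the XPF nuclease that cuts 5′ of the lesion, was at 31.8, 31.2 and 32.4 CPM in the DMSO libraries and 51.2, 52.7 and 54 CPM after auxin, a 1.65-fold rise with a log2 change of 0.73 (SE 0.05, adjusted p 3.72e-05). The auxin libraries lay above the DMSO libraries in both. Their calls ended on TPM, at adjusted p 0.117 and 0.408 on log2(TPM + 1). ERCC1, the partner without which XPF is unstable, was at 42.1 ± 1.73 and 39.3 ± 1.58 CPM (± SD, n = 3 each), with overlapping groups and a change of -0.10 (SE 0.06, adjusted p 0.207). ERCC1 overlaps CD3EAP on the opposite strand by 1593 of 5576 exonic bases. ERCC5, the nuclease that cuts on the 3′ side, fell, at -0.33 (SE 0.07, adjusted p 0.00651), and overlaps the readthrough gene BIVM-ERCC5 by 5213 bases on the same strand. The posterior SD that the authors deposited with each count reached 1.56% of the ERCC5 count, the highest share among the 55.

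In transcription-coupled repair ERCC6, the CSB remodeller, rose from 48.6 ± 2.4 to 62 ± 2.86 CPM (± SD, n = 3 each), at 0.35 (SE 0.06, adjusted p 0.00262). ERCC8, the CSA adaptor, was at 18.4 ± 1.07 and 19.3 ± 0.848 CPM (± SD, n = 3 each), with overlapping groups and a change of 0.07 (SE 0.07, adjusted p 0.429). The ERCC5 and ERCC6 calls ended on TPM, at adjusted p 0.159 and 0.365 on log2(TPM + 1).

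Of the 5 mismatch repair genes 2 fell, 1 rose and 2 were not called (all genes tested, 26.9% lower and 25.4% higher). EXO1 (ENSG00000174371.16, chromosome 1, 241847967 to 241895148), the exonuclease that removes the mismatched strand, was at 125, 135 and 147 CPM in DMSO replicates 1, 2 and 3 and at 48.8, 53.4 and 60.6 CPM in auxin replicates 1, 2 and 3. It fell 2.5-fold, a log2 change of -1.32 (SE 0.10, adjusted p 4.33e-05), with no overlap of the groups. MSH6 (ENSG00000116062.14, chromosome 2, 47695530 to 47810101), which recognises base mismatches and overlaps FBXO11 on the opposite strand by 1785 of 10993 exonic bases, fell from 116 ± 9.79 to 78.5 ± 4.82 CPM (± SD, n = 3 each), at -0.56 (SE 0.08, adjusted p 0.000993). MSH3, which recognises longer loops, was at 8.04 ± 0.175 and 7.25 ± 0.226 CPM (± SD, n = 3 each), with a change of -0.15 (SE 0.08, adjusted p 0.151), and with the block -0.15 (adjusted p 0.0432). PMS1 was at 56.5 ± 2.51 and 52.2 ± 1.85 CPM (± SD, n = 3 each), with a change of -0.11 (SE 0.06, adjusted p 0.138), and with the block -0.11 (adjusted p 0.0168). PMS2 (ENSG00000122512.15, chromosome 7, 5973239 to 6009125), the endonuclease subunit, was at 34.5, 34.4 and 34.8 CPM in the DMSO libraries and 40.6, 43.6 and 43.9 CPM after auxin, with a change of 0.31 (SE 0.06, adjusted p 0.0029). PMS2 has near-identical pseudogene copies, so its count is uncertain, although the posterior SD was at most 0.222% of it, and the rise was not called on TPM (adjusted p 0.647 and 0.632).

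Among the 6 damage kinases and mediators 3 fell, 1 rose and 2 were not called (all genes tested, 26.9% lower and 25.4% higher). ATR (ENSG00000175054.14, chromosome 3, 142449235 to 142578826), the kinase of replication stress, was at 101, 94.9 and 102 CPM in DMSO replicates 1, 2 and 3 and at 149, 154 and 155 CPM in auxin replicates 1, 2 and 3. It rose 1.54-fold, a log2 change of 0.62 (SE 0.06, adjusted p 0.000107), which was not called on TPM (adjusted p 0.138 and 0.127). CHEK1 (ENSG00000149554.12, chromosome 11, 125625136 to 125676255), the kinase that ATR activates, moved the other way, at 91.1, 95.1 and 102 CPM in the DMSO libraries and 56.5, 59 and 63.9 CPM after auxin, with a change of -0.68 (SE 0.07, adjusted p 0.00018). For ATM, the double-strand break kinase, the groups overlapped at 65.6 ± 4.63 and 57.6 ± 6.38 CPM (± SD, n = 3 each), with a change of -0.19 (SE 0.09, adjusted p 0.133), and with the block its change was -0.19 (adjusted p 0.00068). Without auxin replicate 1 the ATM change was also called (adjusted p 0.0206).

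CHEK2, the kinase below ATM, fell from 17.4 ± 1.25 to 14.2 ± 0.87 CPM (± SD, n = 3 each), at -0.30 (SE 0.08, adjusted p 0.0222). That call ended without DMSO replicate 2 (adjusted p 0.0546), DMSO replicate 3 (0.0775), auxin replicate 1 (0.0523) or auxin replicate 3 (0.0709), with upper-quartile factors (0.0878) and on TPM (0.201 and 0.182). TP53BP1 (ENSG00000067369.13, chromosome 15, 43403061 to 43510728), which shields ends from resection, was at 63.2, 61.8 and 64.4 CPM in the DMSO libraries and 35.3, 33.7 and 33.6 CPM after auxin, with a change of -0.88 (SE 0.05, adjusted p 1.62e-05). Its groups were well separated, 3732 of its 12991 exonic bases overlap TUBGCP4 on the opposite strand, and the adjusted p was 0.0523 on log2(TPM + 1). MDC1, the mediator that binds phosphorylated histone H2AX, was at 130.1 ± 3.72 and 122 ± 8.34 CPM (± SD, n = 3 each), with overlapping groups and a change of -0.09 (SE 0.07, adjusted p 0.306).

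The transcript tables show what kinds of RNA made up each gene. For each library, the TPM of transcripts not annotated as protein-coding (retained introns, targets of nonsense-mediated decay and processed transcripts) was set against that of the protein-coding transcripts, and the log2 ratio was tested with limma over 9526 protein-coding genes. Of the 52 repair genes tested, 5 had a higher non-coding share after auxin and none a lower one, where 12.9% of all genes tested were higher and 2.65% lower (15.5% in either direction). At an unadjusted limma p under 0.05, 10 were higher and 5 lower, near the 19.9% and 7.84% of all genes tested. With the replicate block and the adjusted threshold 8 were higher and 5 lower, where 16.7% and 5.95% of all genes tested were, and the 5 lower were XPA, ERCC1, ERCC4, RAD50 and RBBP8. The higher ones then also included ERCC3, LIG3 and TP53BP1. Where transcripts have most exons in common, the division of reads among them is the estimate of the authors' quantifier.

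FANCG had the highest non-coding share of the 5, at 77.7, 80.1 and 81.1% in the DMSO libraries and 93.7, 94.1 and 95.7% after auxin. The groups did not overlap, and the log2 ratio rose by 1.86 (SE 0.21, limma adjusted p 0.00163). Its 14-exon protein-coding transcript FANCG-201 was at 4.59, 2.86 and 3.17 TPM in the DMSO libraries and 0.3, 0.17 and 0.16 TPM after auxin. In FANCA the share was 30.4, 21.6 and 18.3% in the DMSO libraries and 51.7, 41.5 and 41.1% after auxin, an increase of 1.43 (SE 0.31, limma adjusted p 0.0232). DDB2 was at 45, 48.6 and 51.1% in the DMSO libraries and 65.4, 66.5 and 60.7% after auxin, an increase of 0.94 (SE 0.19, limma adjusted p 0.0193). The non-coding transcripts of FANCG were at 16.1, 11.6 and 13.8 TPM in the DMSO libraries and 4.47, 2.7 and 3.59 TPM after auxin, those of FANCA at 9.27, 3.53 and 3.32 TPM in the DMSO libraries and 6.85, 3.13 and 3.35 TPM after auxin and those of DDB2 at 10.8, 8.3 and 9.19 TPM in the DMSO libraries and 13.3, 11.7 and 10.5 TPM after auxin.

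In XRCC1 the shares were 8.14, 5.93 and 4.47% in the DMSO libraries and 23.6, 7.32 and 23.4% after auxin, so auxin replicate 2 lay within the DMSO range while the other 2 were far above. The log2 ratio rose by 1.98 (SE 0.36, limma adjusted p 0.0112), and the non-coding transcripts themselves were at 0.46, 0.23 and 0.19 TPM in the DMSO libraries and 0.17, 0.03 and 0.11 TPM after auxin, each auxin library below each DMSO library. FANCE stayed almost wholly protein-coding, at 0.297, 1.31 and 0.952% in the DMSO libraries and 1.33, 3.12 and 2.02% after auxin, with a log2 ratio change of 1.82 (SE 0.41, limma adjusted p 0.0258). Its non-coding transcripts were at 0.02, 0.05 and 0.04 TPM in the DMSO libraries and 0.02, 0.03 and 0.02 TPM after auxin, at or under the 0.05 TPM added to each sum, so the ratio reflects the fall of the coding transcript over that floor and shows no rise of non-coding RNA. FANCG was called under every alternative run, and XRCC1 under every one except the minimum of 5 TPM, at which it was not tested. XRCC1 met the minimum of 1 TPM through its DMSO libraries, with a mean of 4.6 TPM there against 0.53 TPM after auxin. Its non-coding sums after auxin lay near the 0.05 TPM added and under the 0.5 TPM of the alternative. Its calls therefore also show no rise of non-coding RNA. The FANCA call ended without DMSO replicate 2 or 3 (adjusted p 0.0917 and 0.077), without auxin replicate 1, 2 or 3 (0.0597, 0.0576 and 0.0531) and with retained introns alone (0.135). The FANCE call ended without DMSO replicate 3 (0.0617) or auxin replicate 2 or 3 (0.089 and 0.085). The DDB2 call ended without replicate 1 or 2 of DMSO (0.0521 and 0.077) or of auxin (0.0544 and 0.079), and with replicates 2 and 3 alone (0.0644).

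**Figure D3:**
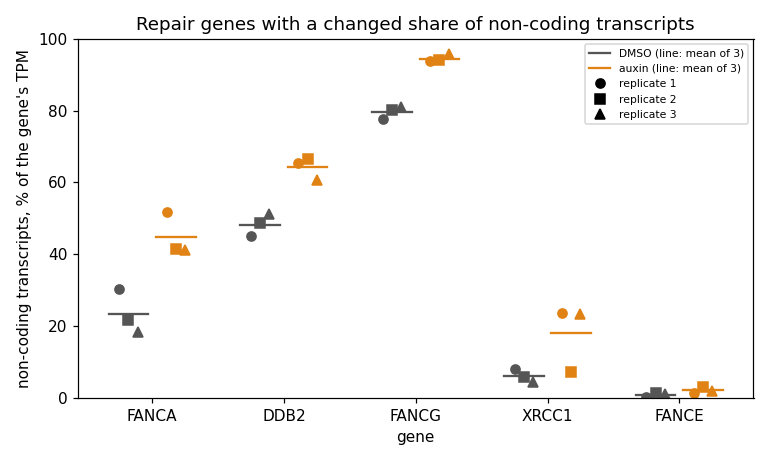
Share of each gene's TPM in transcripts not annotated as protein-coding, in percent, for the 5 repair genes whose log2 ratio of non-coding to coding TPM passed the test; points are libraries and lines are means of 3 libraries a group. FANCG goes from between 77.7% and 81.1% to between 93.7% and 95.7%, and in XRCC1 one auxin library lies within the DMSO range.

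In some genes single transcripts took a different share of the gene's TPM after auxin. The 5 examples were chosen after their values were seen and were not tested. DDB2-201, with 10 exons, went from 45.4% ± 1.92 to 10.6% ± 1.88 (SD, n = 3 each) of the gene's TPM, while DDB2-202, with 6 exons, went from 1.86% ± 1.21 to 20.3% ± 1.96 (SD, n = 3 each). The summed TPM of DDB2 was 19.7 ± 3.73 in DMSO and 18.4 ± 1.74 after auxin (SD over 3 libraries a group), while its count fell. ERCC1-201, with 8 exons, went from 39.2% ± 4.28 to 14.3% ± 1.37 (SD, n = 3 each), although the level of ERCC1 was not called. The 3-exon RAD50-204 went from 8.81% ± 1.12 to 27% ± 1.34 (SD, n = 3 each) of RAD50. FANCA-203, with 11 exons, went from 17.9% ± 1.48 to 2.09% ± 0.744 (SD, n = 3 each). The mean non-coding share rose in FANCA from 23.4% in DMSO to 44.8% after auxin, and in DDB2 from 48.2% to 64.2%. In these genes the shift was therefore not only between protein-coding transcripts. The posterior SDs of these 5 transcripts were at most 1.7% of the gene's count.

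The genes that fell had a higher median G and C share than those that rose, a feature that was not used to choose them. In the longest protein-coding transcript, G and C made up a median of 54.3% in the 12 genes that fell at least 2-fold, 45.7% in all 29 that fell and 42.0% in the 10 that rose. All 7 genes with at least 55% G and C have a negative log2 fold change, with a median of -1.92, and 6 of them were called lower. ERCC1 was the one that was not. Among all protein-coding genes with that composition 55.8% were lower. None of the 10 that rose exceeded 46.2%. Across the 55 genes the correlation of fold change with the G and C share was -0.34 (Spearman) and -0.53 (Pearson), and across 14003 protein-coding genes tested it was -0.36 and -0.42. These are descriptions across genes of the same 6 libraries, not across samples. In the band under 45% G and C, 14 of 31 repair genes (45.2%) were lower, against 21.2% of the protein-coding genes in that band. There 8 of the 31 were higher, against 1722 of 4924. From 45% to 50%, 4 of 9 were lower against 18.3%, and from 50% to 55%, 5 of 8 against 30.6%. Over protein-coding genes tested, the median G and C share was 56.1% in those lower and 46.2% in those higher. The part of base composition in the falls was not tested.

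**Figure D4:**
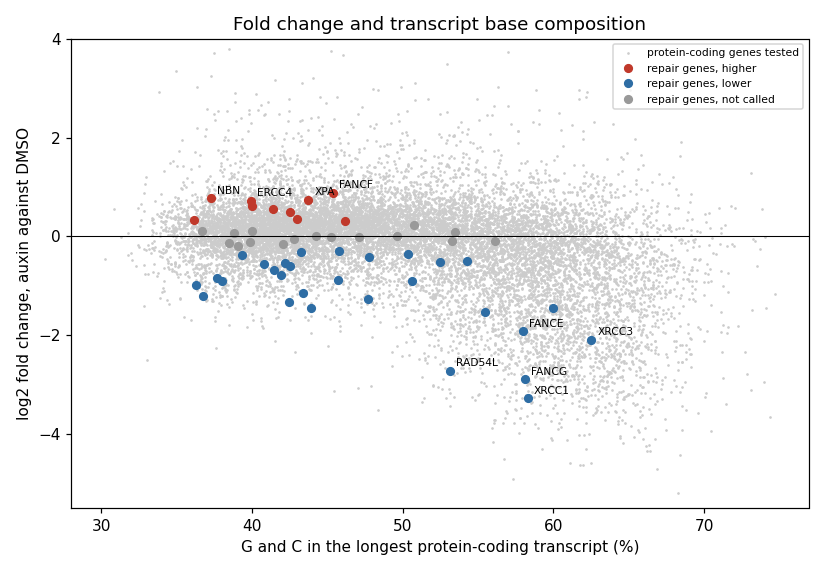
Log2 fold change after auxin (y) against the share of G and C in the longest protein-coding transcript (x) for the 55 repair genes (coloured by call) and the protein-coding genes tested (grey; 9 with fold changes outside the axis are not drawn). XRCC1, FANCG, XRCC3 and FANCE lie at the lower right, and the genes that rose all lie at or under 46.2%.

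Another 93 repair genes, in 7 lists, are set beside the 55. Like the 55, they were chosen with earlier results of these data known, so their counts are not independent support. Of them 51 fell, 17 rose and 25 were not called. Of all genes tested 26.9% were lower and 25.4% higher, and of protein-coding genes tested 33.4% and 27.8%. The lists stood at 7 lower and 4 higher of 16 further excision repair genes, 11 and 2 of 21 in recombination, 5 and 1 of 7 in the Fanconi pathway, 8 and 2 of 12 in end joining, 8 and 2 of 12 in signalling, 7 and 2 of 15 in base excision repair, and 5 and 4 of 10 in translesion synthesis and direct reversal. In the same order, their median log2 fold changes were -0.216, -0.563, -0.842, -0.82, -0.395, -0.322 and -0.0289. MUS81 and XAB2 were among the largest falls, and the largest rises were those of FAN1, GTF2H5 and CCNH.

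MUS81, a nuclease for branched DNA, was at 10.6, 7.13 and 7.66 CPM in the DMSO libraries and 1.38, 0.636 and 0.74 CPM after auxin, with a change of -3.19 (SE 0.33, adjusted p 0.000191). XAB2, a partner of XPA that also acts in splicing, changed by -2.88 (SE 0.06, adjusted p 1.39e-06). FAN1, a nuclease of crosslink repair, rose from 23.5 ± 0.536 to 43.2 ± 1.75 CPM (± SD, n = 3 each), at 0.88 (SE 0.06, adjusted p 2.66e-05). GTF2H5 and CCNH, subunits of TFIIH and of its kinase module, changed by 0.70 (SE 0.17, adjusted p 0.0111) and 0.65 (SE 0.06, adjusted p 0.000137).

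Genes of S phase and proliferation, also listed with earlier results of these data known, were lower as well. Of 16 such genes 15 fell and all 16 estimates were below 0, with a median log2 fold change of -0.92 and a summed level of 1337 to 1944 TPM in the DMSO libraries and 705.1 to 862.8 TPM after auxin. The exception was MCM6, at -0.20 (SE 0.11, adjusted p 0.173), and with the block its change was -0.20 (adjusted p 0.000534). Of all genes tested 26.9% were lower and of protein-coding genes 33.4%, and the median log2 fold change over all genes tested was 0.02. E2F1, a transcription factor of S-phase genes, was at 36.3, 28.3 and 29.8 CPM in the DMSO libraries and 1.57, 1.18 and 1.14 CPM after auxin, the largest change of that list at -4.59 (SE 0.17, adjusted p 3.17e-06). The part of these genes, or of the cell cycle, in the falls of the repair genes was not tested.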

How the data were processed

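RNA-seq of HCT116 cells was deposited as 1 table per gene and 1 per transcript for each of 6 libraries, 3 of 16 h auxin and 3 of DMSO. Per the labels' protocols, RNA was depleted of ribosomal RNA and libraries were made with a stranded kit. Per the submitters' processing notes, bcl2fastq 2.20, STAR and DESeq2 were used with GRCh38. Per the file headers, the authors deposited expected counts, which are not normalized, TPM, which is scaled to length and to a fixed total, and for every count its posterior standard deviation. The quantifier's version, the annotation and the use of strand are not given in the sources used here. All 58780 human gene IDs matched GENCODE 29, which gave symbols and GRCh38 coordinates. The 649 numeric and 97 spike-in IDs, at most 0.00111% of counts, were left out.

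Expected counts were rounded and tested over all genes with edgeR 4.0.16 in R 4.3.3 (filterByExpr, TMM, quasi-likelihood F test, Benjamini-Hochberg adjustment). CPM is the rounded count over the TMM-scaled library size, and standard errors of log2 changes came from the F statistic. Transcript ratios, with 0.05 TPM added to each sum and a mean gene TPM of at least 1, were tested with limma 3.58.1 (trend). Both tests were also run on simulated data, in which fewer genes changed than were called here and replicate 1 was not set apart. Those runs therefore do not cover the scaling or the offset of replicate 1. No 2 libraries of a group differed by as little as sampling noise (chi-square per gene 38.4 to 614). Deviations of same-numbered libraries correlated at 0.875, 0.678 and 0.646, and those of replicates 2 and 3 crossed at 0.632 and 0.414, so the numbers mainly set replicate 1 apart. As each same-numbered correlation was over 0.1 the numbers were taken to pair the samples, and fits with the replicate number as a block are given where they change a call. The main tests and all other settings were fitted without the block, so they leave the pairing out. A gene given as not called can therefore be called with the block. Full values are given for called genes with a fold change of at least 1.5 and for the extremes of each pathway. Of the other repair genes, the rule names the 3 largest falls and 3 largest rises, of which 1 is not reported here. The members and lists were chosen with earlier results of these data known.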

Additional observations from a re-analysis of the deposited data

How the results depend on the processing

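Of the 39 repair genes called, 39 were called in the same direction with DESeq2, with either other filter on low counts, with library size only, with the replicate block, without DMSO replicate 1 and with replicates 2 and 3 alone (a setting added after the data were seen), and 35 with upper-quartile factors. Single libraries left out kept 36 to 39, with 10 to 11 higher and 26 to 29 lower. Of the 10321 called among all genes tested, 10088 were kept with DESeq2, 9426 with upper-quartile factors and 8390 to 9524 with single libraries left out. On TPM fewer were called: log2(TPM + 1) gave 2 higher and 20 lower, and log2(TPM + 0.1) gave 2 and 21. Over all genes these gave 970 higher and 2966 lower, and 1017 and 3223, against 5010 and 5311, and the cause was not tested. The replicate block gave 14 higher and 33 lower repair genes, and 7005 and 6789 of all genes.

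Transcript shares depended more on the settings. The 5 higher and 0 lower repair genes became 11 and 1 with 0.5 TPM added, 3 and 0 of 48 tested at a mean TPM of at least 5, 4 and 1 of 40 tested with retained introns alone, 8 and 5 with the replicate block, and 4 and 1 with replicates 2 and 3 alone. Single libraries left out gave 2 to 6 higher and 0 to 1 lower. Over all genes the 1228 higher and 252 lower became 1767 and 475, 755 and 165, 1161 and 115, and 1595 and 567 under the first 4 of these, and single libraries left out gave 810 to 1148 and 95 to 250. The smaller counts at 5 TPM and with retained introns alone go with fewer genes tested, and the cause of the others was not tested.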
